A study of Mus musculus with 24 samples.

Results

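In KLS cells, 540 sites were more accessible after loss of Daxx and also after loss of both Daxx and Pu.1. KLS cells (c-Kit+ Lin- Sca-1+) are the bone marrow fraction that holds haematopoietic stem cells and early progenitors. The sites were chosen by their mean read levels: the mean of the Daxx-KO libraries had to exceed that of Daxx-WT, and the site had to overlap, by at least 1 bp, a site whose mean in Daxx and Pu.1 double-KO (DKO) libraries exceeded that of Daxx-WT. The deposited table of Daxx-KO against Daxx-WT held 17311 sites, of which 3308 were higher, and the table of DKO against Daxx-WT held 50928, of which 36740 were higher. The 540 sites were therefore 16.3% of the sites higher in Daxx-KO, and they met 544 different DKO sites, which were 1.48% of those higher in DKO. Of the 540 sites, 3 also overlapped a DKO site listed as lower and were kept. The other sites higher in Daxx-KO comprised 292 that were listed only as lower in DKO and 2476 that overlapped no DKO site.

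Daxx is a chaperone that deposits the histone variant H3.3, with known roles at silenced chromatin and repeats. Pu.1, encoded by Spi1, is an ETS-family transcription factor that binds enhancers of myeloid and B-lymphoid genes and helps to open them. The assay was ATAC-seq, in which a transposase cuts accessible DNA, so a site with more reads was more open in the pool of cells. In such a pool, a larger share of cells with an open site and a wider opening in each cell cannot be told apart.

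All KLS libraries came from bone marrow of C57BL/6 mice at 3 weeks post induction (w.p.i.) of Cre. The Daxx-WT group (Daxx +/+ Cre +/-) had 2 libraries, the Daxx-KO group (Daxx F/F Cre +/-) had 3 and the DKO group, which was Daxx F/F and also Pu.1 F/F with Cre +/-, had 2, so the controls carried Cre and its induction too. The labels name neither the Cre driver nor the age of the mice. The double-floxed line is described in the study with Mx1Cre, which is induced by an interferon-raising double-stranded RNA and acts in cells other than blood cells as well. The independent comparison used LT-HSCs (long-term haematopoietic stem cells) at 3 days post induction (d.p.i.), with 3 Daxx-KO (Daxx F/F Cre +/-) and 2 Daxx-WT (Daxx +/+ Cre +/-) libraries, described in the study with a tamoxifen-induced Cre. The labels give both of these controls as Daxx +/+, whereas a legend of the study gives the pair as Daxx +/+ and Daxx +/F, so every LT-HSC difference may rest partly on a heterozygous control. Peak lists were also given for LT-HSCs, for CMPs (common myeloid progenitors) and for GMPs (the progenitors of granulocytes and macrophages) at 3 w.p.i., in Daxx-WT and Daxx-KO mice of the same genotypes. The study describes these mice with the tamoxifen-induced Cre too, and their libraries with another protocol than those of the KLS cells. Comparisons of these lists with KLS cells may therefore also differ in Cre driver, inducer and protocol.

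In both KLS tables the control was the same pair of Daxx-WT libraries. At 15 of the 540 sites the interval was identical in both tables, and at 14 of these the Daxx-WT whole reads were identical too. At the others, DKO reads and the Daxx-WT reads beside them are those of the overlapping DKO site. That site had other limits than the coordinates given, so read levels of the knockouts are not on a like scale. A low value in the Daxx-WT libraries raised both differences, and the choice of sites used both contrasts. The KLS differences are therefore given as descriptions, without a test. Of the 832 sites higher in Daxx-KO that the DKO table listed in either direction, 540 (64.9%) were higher there, below the 72.1% of all sites of the DKO table that were higher. The share of sites of the Daxx-KO table that were higher was 19.1%, and nothing about the 540 sites is read from either share. Of the 14003 sites lower in Daxx-KO, 812 overlapped a site higher in DKO and 885 a site lower in DKO.

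The mean depth per 600 bp window, given in the headers, ranged from 4.54 to 8.36 reads across the Daxx-KO and Daxx-WT libraries and was 9.98 and 16.00 reads in the DKO libraries. The authors scaled reads by 1 constant per library in each KLS table, between 0.87 and 1.14. Of the markers that define KLS cells, Kit had a peak within 1000 bp of a transcription start site in all 3 KLS lists and Ly6a (Sca-1) had none. Of the markers that subdivide them, Flt3 had a peak in all 3 lists, Cd34 in the Daxx-WT and Daxx-KO lists but not in the DKO list, and Slamf1 in none. Of 4 neutrophil markers, Camp and S100a8 had a peak in the DKO list alone, Ltf in both other lists alone and Ly6g in none. Of 2 mast cell and basophil markers, Mcpt8 had a peak in the DKO list alone and Cpa3 in both other lists alone. No site of the 540 had Daxx or Spi1 as its nearest or overlapped gene.

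The sequences below show what the sites looked like at their centre. Sites were ranked by the smaller of their 2 differences; Gm2682 and Cdk5rap1 lay at the highest-ranked sites outside a repeated sequence described further on, and Mcpt8 and Lck at sites of genes that mark other blood cells. Each is 201 bases of the plus strand of GRCm38.p6 (the mm10 coordinates of the files), taken from RefSeq's assembly. Capitals mark letters of the 10 short motifs that were searched on both strands.
Gm2682 intron, chr15:60141725-60141925: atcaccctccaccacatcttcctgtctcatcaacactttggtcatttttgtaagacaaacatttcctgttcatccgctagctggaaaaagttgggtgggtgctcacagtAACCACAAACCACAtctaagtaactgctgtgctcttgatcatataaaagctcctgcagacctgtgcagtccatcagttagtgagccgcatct
Cdk5rap1 exon, chr2:154354000-154354200: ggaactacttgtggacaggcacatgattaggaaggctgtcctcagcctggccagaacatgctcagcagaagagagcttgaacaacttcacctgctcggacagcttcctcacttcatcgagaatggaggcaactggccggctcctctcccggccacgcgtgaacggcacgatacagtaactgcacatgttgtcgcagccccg
Mcpt8 exon, chr14:56085275-56085475: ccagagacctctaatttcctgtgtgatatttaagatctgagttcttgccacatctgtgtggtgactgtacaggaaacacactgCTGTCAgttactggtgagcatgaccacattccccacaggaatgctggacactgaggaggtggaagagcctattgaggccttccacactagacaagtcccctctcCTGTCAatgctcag
Lck exon, chr4:129558600-129558800: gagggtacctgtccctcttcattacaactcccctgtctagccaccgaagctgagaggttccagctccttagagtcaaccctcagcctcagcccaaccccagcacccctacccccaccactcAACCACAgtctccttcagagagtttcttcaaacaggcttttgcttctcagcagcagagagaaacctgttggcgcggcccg
In these windows the capitals are a pair of RUNX matches, side by side, at Gm2682, a pair of MEIS matches at Mcpt8 and a RUNX match at Lck. The Cdk5rap1 window held none of the motifs.

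Across the 540 sites the median log2 difference was 1.11 in Daxx-KO (range 0.31 to 2.91) and 1.21 in DKO (range 0.22 to 2.92), on the scale log2(mean scaled reads + 1). These are median folds of 2.16 and 2.31. The medians over all higher sites were 1.00 in the Daxx-KO table and 1.45 in the DKO table. At least a 2-fold difference in both comparisons was found at 327 sites, and at least a 4-fold difference in both at 4 sites. The library medians over the 540 sites were 64.6, 77.9 and 62.1 scaled reads in Daxx-KO against 29.2 and 32.1 in Daxx-WT. In the DKO table they were 75.3 and 73.1 in DKO against 29.7 and 32.9 in Daxx-WT. The lowest knockout library lay above the highest Daxx-WT library at 534 sites for Daxx-KO and at 539 for DKO. Since 98.2% of all higher sites of the Daxx-KO table and 100% of those of the DKO table, rounded, were apart in the same way, this is a property of the tables.

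The order of the knockouts depended on how the libraries were scaled. With the constants of the authors, the difference was larger in DKO than in Daxx-KO at 363 of the 540 sites. With each library divided by its mean reads per window instead, it was larger in DKO at 0 sites, the median log2 difference became 1.70 in Daxx-KO and 0.55 in DKO, and 9 sites were no longer higher in DKO. That scaling shifted the median of all sites by 0.47 in the Daxx-KO table and by -0.68 in the DKO table, and the medians of the 540 sites by 0.59 and -0.66. No order of the knockouts is therefore given here.

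**Figure D1:**
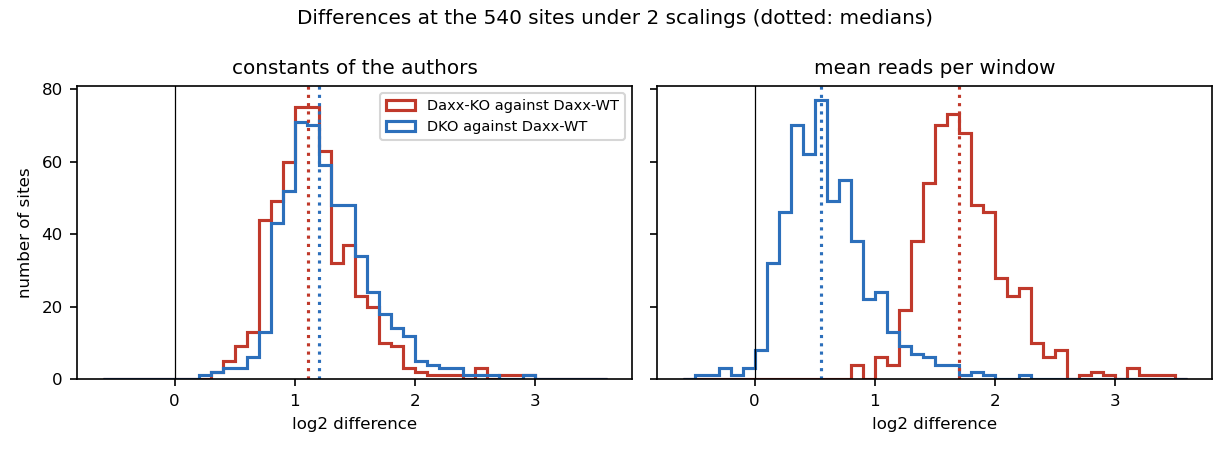
Histograms of the log2 difference from Daxx-WT at the 540 sites, for Daxx-KO (red) and DKO (blue), with the constants of the authors (left) and with reads divided by the mean reads per window (right). Dotted lines are medians; they are 1.11 and 1.21 on the left and 1.70 and 0.55 on the right.

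The highest smaller difference was found at chr13:117168551-117169850, between genes and 25445 bp from the start of the nearest annotated gene, Gm18945. This site was in no peak list. It held 75.7, 44.6 and 59.3 scaled reads in Daxx-KO against 6.39 and 9.17 in Daxx-WT, and 57.3 and 52.5 in DKO against 6.21 and 6.58 in Daxx-WT. The next was chr1:58644601-58645900, 788 bp from the pseudogene Cbx3-ps7, with 73.5, 63.0 and 88.4 scaled reads in Daxx-KO against 10.9 and 12.6 in Daxx-WT. Its DKO libraries held 56.2 and 48.7, against 9.76 and 5.48. All knockout libraries lay above both Daxx-WT libraries at both sites, as at nearly all higher sites of the KLS tables. The folds of the means plus 1 were from 5.94 to 7.55.

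These 2 sites shared a repeated sequence. Of the words of 32 bases in each, 559 of 1269 (44.1%) occurred in the other, and their words had a median of 37 and 40 copies in the genome, counted on both strands. Soft-masking, which marks interspersed repeats in the assembly, covered 67.1% and 57.0% of their bases. A read from the repeated part can come from any of its copies, and 26.8% and 22.0% of the words were unique in the genome. How much of the values at these sites belongs to these positions therefore cannot be told. At 19 of the 540 sites (3.52%) under 50% of the words were unique in the genome, compared with 2.58% of the sites not listed for DKO and 0.685% of those lower in DKO. Without these 19 sites, 521 remained, with median log2 differences of 1.11 and 1.21.

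**Figure D2:**
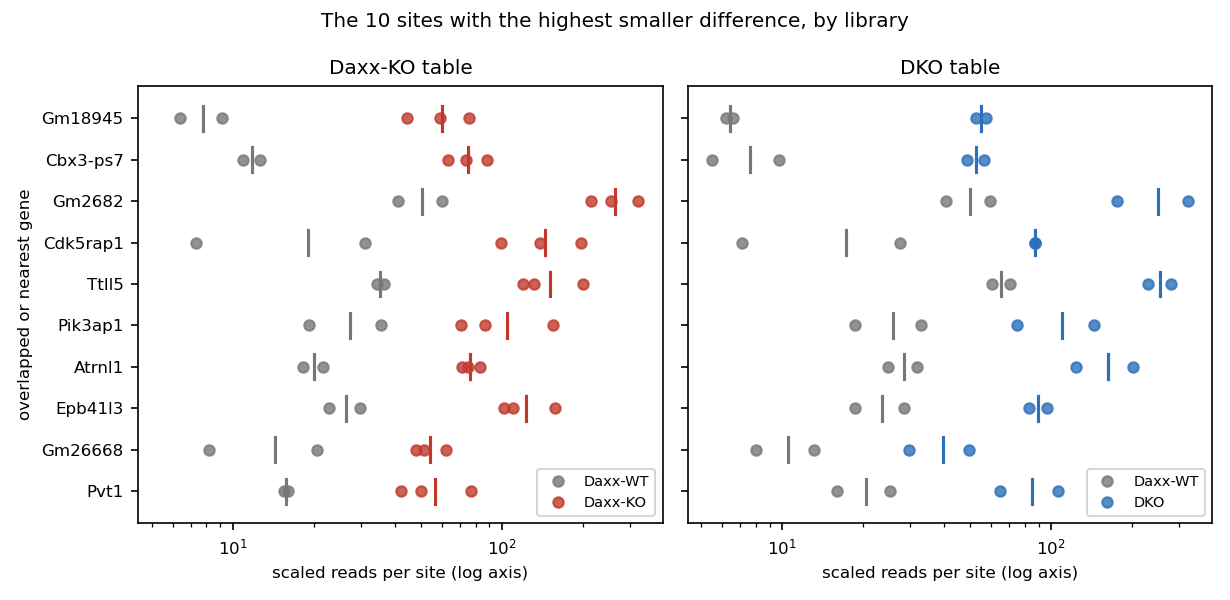
Scaled reads per site (log axis) of each library (points) and group means (vertical bars) at the 10 sites with the highest smaller difference, in the Daxx-KO table (left) and the DKO table (right). At all 10 sites the knockout libraries lie to the right of both Daxx-WT libraries, as at nearly all higher sites of the KLS tables.

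The third site, chr15:60141051-60142600, lay in an intron of the long non-coding RNA gene Gm2682. It held 214.9, 321.1 and 255.9 scaled reads in Daxx-KO against 60.2 and 41.3 in Daxx-WT. DKO had 323.4 and 176.1, against 59.5 and 40.6. The next overlapped an exon and a start site of Cdk5rap1, which encodes an enzyme that modifies tRNA, at chr2:154353251-154354950. Its values were 197.1, 139.1 and 99.7 in Daxx-KO and 86.9 and 87.1 in DKO. Its Daxx-WT libraries held 7.30 and 30.9 in the Daxx-KO table and 7.10 and 27.4 in the DKO table, and 59.9% of its words were unique.

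The remaining 6 of the 10 lay within genes. They were in introns of Ttll5 (a tubulin-modifying enzyme), Pik3ap1 (an adaptor of B-cell receptor signalling), Atrnl1, Gm26668 near Kif18b (a mitotic kinesin) and Pvt1 (the long non-coding RNA gene beside Myc), and in an exon of Epb41l3 (a membrane-skeleton protein). The Gm26668 and Pvt1 sites were in no peak list. At the Pik3ap1 site, chr19:41353901-41355050, Daxx-KO libraries held 86.8, 155.7 and 70.5 scaled reads against 19.2 and 35.5 in Daxx-WT. The DKO libraries held 144.2 and 74.9 there, against 18.6 and 32.9. Libraries of 1 group thus varied but no group overlapped Daxx-WT, as at nearly all higher sites of the KLS tables. At the Pvt1 site, chr15:62169551-62170450 and 182129 bp from a Myc start site, Daxx-KO held 50.1, 77.0 and 42.3 against 15.5 and 16.1, and DKO held 106.0 and 64.6 against 16.0 and 25.2.

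Among sites in a Daxx-KO and a DKO peak but in no Daxx-WT KLS peak, the 5 with the highest smaller difference lay in introns. They were those of Gm2682 and Atrnl1, described above, and of Arhgap10 (chr8:77451001-77452200), 4921513I03Rik (chr10:120774851-120776200) and Itpr1 (a calcium channel of the endoplasmic reticulum, chr6:108465551-108467150). At the Arhgap10 site Daxx-KO had 84.6, 154.0 and 81.8 scaled reads against 27.4 and 34.4 in Daxx-WT. Its DKO site was the longer chr8:77450751-77453200, with 219.5 and 199.6 against 50.6 and 60.3. At the Itpr1 site the values were 168.1, 203.8 and 191.0 against 51.1 and 68.8, and 233.3 and 187.4 against 56.8 and 69.1.

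The nearest or overlapped gene of each site was matched to 12 gene lists of blood-cell biology. Of these, 5 lists matched 1 or 2 sites each, 6 sites in all, and 7 lists matched 0. The lists with 0 sites were stem cell heptad factors (7 genes), HSC self-renewal factors (22), myeloid fate and granule genes (31), interferon-stimulated genes (35), cytokines and chemokines (23), genes of Daxx, H3.3 and silencing (27) and loci discussed by the study (15). These 7 lists each matched 0% to 0.202% of the sites not listed for DKO and 0% to 0.685% of those lower in DKO. By the nearest protein-coding gene, an assignment chosen after the values were seen, 3 of the 7 lists matched 1 site each: Thy1 of the HSC self-renewal list, Irf8 of the myeloid list and Morc2a of the silencing list. In that order, these lists matched 0.323%, 0.283% and 0.121% of the sites not listed for DKO. Of those lower in DKO they matched 0.342%, 0% and 0%. The same assignment raised the cell cycle list from 1 to 3 sites (0.556%), against 0.404% of the sites not listed for DKO and 0% of those lower in DKO. The AP-1 and stress list rose from 1 to 2 sites (0.37%), against 0.0404% and 0.342%.

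The lymphoid list (38 genes) matched 2 sites (0.37%), of which 1 is described. It matched 0.889% of the sites not listed for DKO and 1.71% of those lower in DKO. An exon of Lck, the kinase that starts T-cell receptor signalling, held a site at chr4:129558151-129559250 with 103.6, 115.5 and 94.1 scaled reads in Daxx-KO against 42.0 and 60.8 in Daxx-WT, and 86.9 and 88.1 in DKO against 35.5 and 48.3. Every knockout library there lay above both Daxx-WT libraries, as at 98.2% of all higher Daxx-KO sites and 100%, rounded, of all higher DKO sites. The Lck site was in no peak list. By the nearest protein-coding gene, the lymphoid list matched 6 sites (1.11%), compared with 1.58% of the sites not listed for DKO and 2.05% of those lower in DKO.

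The mast cell, basophil and eosinophil list (9 genes) matched 0.185% of the 540 sites. It matched 0% of the sites not listed for DKO and 0% of those lower in DKO. Mcpt8, a protease of basophil granules, was the 1 matched gene. Its site over an exon and a start site, chr14:56084951-56085800, had 53.5, 43.7 and 46.1 scaled reads in Daxx-KO against 14.6 and 30.9 in Daxx-WT. The overlapping DKO site, chr14:56084551-56085900, was longer and had 160.1 and 100.2 in DKO against 16.0 and 41.7. The site at chr14:56084951-56085800 was in a peak of the DKO KLS list and of both GMP lists, and in none of the other 8. Within 10 kb of Mcpt8, 4 DKO sites were higher and 0 lower, and within 10 kb of Cpa3, the other marker of mast cells and basophils, 0 were higher and 1 lower. Near the 4 neutrophil markers 11 DKO sites were higher and 0 lower, near the 2 monocyte markers 2 and 2, near the 3 B-cell markers 3 and 3, near the 2 T-cell markers 3 and 0, near the 3 erythroid markers 1 and 1 and near the 5 KLS markers 5 and 4, where 72.1% of all DKO sites were higher. In the Daxx-KO table, in the same order from the neutrophil markers on, these numbers were 1 and 3, 0 and 0, 5 and 1, 2 and 1, 1 and 3, and 0 and 5, where 19.1% of all sites were higher. Their part in this result was not tested.

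The remaining 3 lists (AP-1 and stress, cell cycle, erythroid and megakaryocyte) matched 1 site each (0.185%). In that order, they matched 0.0404%, 0.242% and 0.0404% of the sites not listed for DKO. Of those lower in DKO they matched 0.342%, 0% and 0%. An intron of Nr4a1, on the AP-1 and stress list (18 genes) and an early-response nuclear receptor, held a site at chr15:101256551-101257450 with 62.4, 43.7 and 50.8 scaled reads in Daxx-KO against 28.3 and 14.9 in Daxx-WT, and 42.4 and 45.0 in DKO against 20.4 and 14.3. An intron of Ccnd3, a cyclin of the G1 phase on the cell cycle list (22), held chr17:47541451-47542550, which was in a peak of all 11 lists, with 143.6, 231.8 and 163.7 against 75.7 and 87.1. Its DKO site was the longer chr17:47541551-47543450, with 282.1 and 242.7 against 120.7 and 140.4. An intron of Bcl2l1, which encodes the survival protein Bcl-xL and is on the erythroid and megakaryocyte list (20), held chr2:152794051-152794650 in no peak list, with 32.3, 65.6 and 19.8 against 7.30 and 16.1, and 29.7 and 44.0 against 7.10 and 16.4. At all 3 genes every knockout library lay above both Daxx-WT libraries, as at 98.2% of all higher Daxx-KO sites and 100%, rounded, of all higher DKO sites.

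Few genes had several of the sites. The 540 sites had 509 different nearest genes, and 3 genes were nearest to 3 sites: Cdyl2 (a chromodomain protein related to chromatin repressors), Afap1 (an actin-binding protein) and the small RNA gene Gm26141. The 3 Cdyl2 sites lay in its introns on chromosome 8, with Daxx-KO means of 23.1, 74.8 and 30.8 scaled reads against Daxx-WT means of 6.97, 23.9 and 9.96. The 3 sites assigned to Afap1 overlapped Sorcs2, and the 3 assigned to Gm26141 lay in introns of Ppp1r16b, where 2 of them met the same DKO site. Chromosomes 8, 7 and 17 held the most sites, 48, 45 and 44, which is 8.89%, 8.33% and 8.15% of the 540, against 5.62%, 6.11% and 6.14% of all sites higher in Daxx-KO.

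The genes of the next sentences were chosen after their values were seen. Cd69, an early activation marker of lymphocytes, had 2 sites at its start, with Daxx-KO libraries at 86.8, 159.2 and 75.3 scaled reads against 50.2 and 61.9 in Daxx-WT at chr6:129274801-129275500, and DKO at 95.4 and 95.6 against 48.8 and 59.2. Rbpj, the DNA-binding partner of Notch receptors, had 51.2, 52.5 and 60.2 against 14.6 and 17.2, and 29.7 and 42.2 against 9.76 and 7.68, at chr5:53566101-53567150. On chromosome 12, 6 sites had a variable segment of the immunoglobulin heavy-chain locus as nearest gene (Ighv14-2, Ighv14-3, Ighv1-12, Ighv1-26, Ighv8-4 and Ighv1-82), with log2 differences of 0.74 to 1.40 in Daxx-KO and 0.85 to 1.43 in DKO. Those segments belong to a multigene family, and 54.3% to 98.9% of the words of these sites were unique in the genome.

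The sex chromosomes held 4 sites, 2 each, and those described here, like the site with the most reads, were chosen after their values were seen. At chrY:90740051-90744650, near the pseudogene Mid1-ps1, Daxx-KO held 1572, 3289 and 2433 scaled reads against 422.4 and 904.4 in Daxx-WT. The overlapping, shorter DKO site had 403.0 and 255.8 against 62.1 and 143.7. At chrX:170672751-170676400, over an exon of Asmt, an enzyme of melatonin synthesis, the values were 998.8, 727.0 and 804.3 against 421.5 and 401.2, and 704.1 and 682.0 against 353.2 and 341.1. Both sites were in peaks of all 11 lists and in sequence where 53.0% and 80.1% of the words were unique. The labels give no sex, so a difference in sex between the groups cannot be told apart from the genotype at the Y-linked site. The site with the most reads, chr17:39842451-39849200 over Gm26917, lay where RefSeq annotates Rn18s-rs5, a relative of the 18S ribosomal RNA gene that has many copies. It had means of 57224 in Daxx-KO and 38652 in Daxx-WT scaled reads and was in no peak list.

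The rule has no minimum size. The smallest Daxx-KO difference among the 540 sites was 0.31 at chr16:11143601-11144700 (means of 1241 and 999 scaled reads), and the smallest DKO difference was 0.22 at chr16:57390951-57391950 (811 and 695). Just outside the rule, a site lower in Daxx-KO and higher in DKO had a log2 difference of -0.20 at chr15:75086301-75087000, and a site higher in Daxx-KO and lower in DKO had -0.59 in DKO at chr4:129263351-129264250. The overlap between the paired sites ranged from 50 bp upward with a median of 650 bp.

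Most of the sites were distal. Of the 540, 447 (82.8%) lay over 1000 bp from every annotated start site (GENCODE M21), compared with 81.2% of the sites not listed for DKO, 86.0% of those lower in DKO and 84.5% of all sites higher in DKO. By location, 239 were in introns, 171 between genes and 130 over an exon, with 49 over a start site. The median length was 900 bp and the median GC content 49.2%, against 47.6% at the sites not listed for DKO. No test was made of these properties.

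The authors' peak lists, 1 per group, held the sites to different extents. A peak of the Daxx-KO KLS list held 53.9% of the 540 sites, a DKO peak 34.6% and a Daxx-WT peak 15.4%. At the 292 sites lower in DKO these shares were 95.2%, 14.0% and 73.6%, and at the 2476 sites not listed for DKO 62.2%, 14.1% and 21.7%. The KLS lists came from the libraries that chose the sites, so these shares are a description. The median Daxx-WT reads per kb of site were 33.8 at the 540 sites, 38.9 at sites not listed for DKO and 82.8 at those lower in DKO.

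By KLS peaks, the most frequent combination was none at all. In no KLS list were 211 sites, with a median of 18.9 scaled reads in Daxx-WT and 47.0 in Daxx-KO. In the Daxx-KO and DKO lists but not the Daxx-WT list were 79 sites, with medians of 42.4 in Daxx-WT, 94.9 in Daxx-KO and 104.5 in DKO, and in all 3 lists were 70, with 79.2, 148.3 and 155.6. The DKO medians are reads of the overlapping DKO sites, mostly with other limits and scaled by other constants, so they give no order of the knockouts. A further 130 were in the Daxx-KO list alone and 37 in the DKO list alone. Among combinations of over 10 sites, the median log2 differences were smallest at the 70 sites in all 3 lists, 0.82 in Daxx-KO and 0.94 in DKO.

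Many of the sites were peaks in wild-type progenitors, whose libraries the rule did not use. A CMP Daxx-WT peak held 47.8% of the 540 sites, a GMP Daxx-WT peak 44.8% and an LT-HSC Daxx-WT peak 32%. The same shares were 54.9%, 42.7% and 46.3% at sites not listed for DKO and 90.1%, 77.4% and 87.7% at those lower in DKO. The 79 sites that had a peak in both knockouts and none in Daxx-WT KLS cells were in CMP and GMP Daxx-WT peaks at 70.9% and 67.1%, and in LT-HSC Daxx-WT peaks at 38%. At sites in all 3 KLS lists the CMP and GMP shares were 94.3% and 92.9%. They were 50% and 39.2% in the Daxx-KO list alone, 48.6% and 64.9% in the DKO list alone and 19% and 18% in no KLS list. Median Daxx-WT reads were 42.4 at the 79 sites, and 79.2, 30.0, 25.6 and 18.9 at the others in that order. Of the 540, 116 were in none of the 11 lists and 44 in all 11. There is 1 list per group, without replicates, and the lists covered between 18.5 Mb (DKO KLS) and 70.1 Mb (Daxx-KO LT-HSC), so shares also follow the size of the list.

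The lists of each cell type were also compared between genotypes. In LT-HSCs at 3 w.p.i., 168 of the 540 sites were in both lists, 77 in the Daxx-KO list only and 5 in the Daxx-WT list only. Of the sites not listed for DKO, these numbers were 1079, 243 and 68, and of those lower in DKO 253, 16 and 3. The Daxx-KO list was the larger of the pair, with 70.1 Mb against 62.9 Mb. At 3 d.p.i. the 540 sites gave 98, 78 and 8, the sites not listed for DKO 569, 279 and 68, and those lower in DKO 181, 35 and 9, where the Daxx-KO list was again the larger, with 44 Mb against 36 Mb.

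In CMPs the Daxx-KO list was the smaller, with 37.3 Mb against 48.5 Mb. There 228 of the 540 sites were in both lists, 71 in the Daxx-KO list only and 30 in the Daxx-WT list only, whereas the sites not listed for DKO gave 1177, 170 and 183 and those lower in DKO 247, 9 and 16. In GMPs, with 35.3 Mb against 45.4 Mb, the 540 sites gave 205, 29 and 37, the sites not listed for DKO 870, 94 and 188, and those lower in DKO 201, 9 and 25. No difference between the classes was tested.

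**Figure D3:**
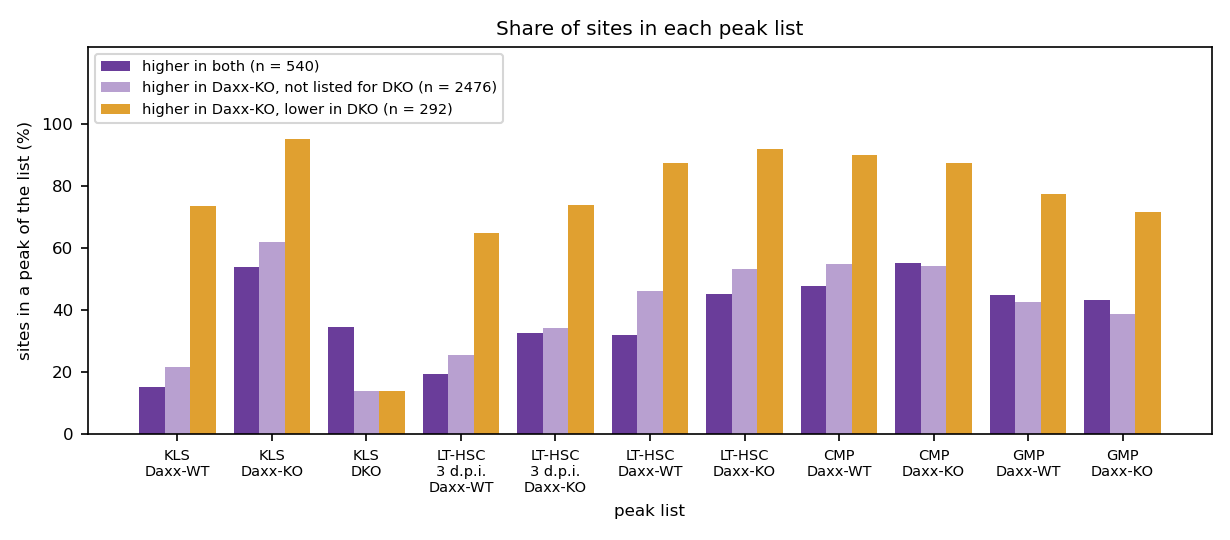
Share of sites (%) that overlap a peak of each of the 11 lists, for the 540 sites higher in both knockouts, the 2476 higher in Daxx-KO and not listed for DKO, and the 292 higher in Daxx-KO and lower in DKO. In the DKO KLS list the share of the 540 sites is above that of both other classes (34.6%, against 14.1% and 14.0%), and in the LT-HSC Daxx-WT list it is below both (32%, against 46.3% and 87.7%).

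LT-HSCs at 3 d.p.i. asked whether the sites had opened in stem cells soon after Daxx was lost, in libraries shared with neither KLS table. Of the 540 sites, 75 (13.9%) overlapped a site of the LT-HSC table, and 67 of these (89.3%) were higher in Daxx-KO, compared with 29.1% of all 11927 sites of that table. The share that overlapped it was 7.39% for sites not listed for DKO, 7.88% for those lower in DKO and 2.94% for those lower in Daxx-KO. Median lengths were 900 bp at the 540 sites and 750, 800 and 700 bp in these classes, and a longer site meets others more readily. The 67 had a median log2 difference of 1.06 (range 0.36 to 2.27) and the 8 that were lower a median of -0.74. Of the sites not listed for DKO, 143 of 183 were higher in LT-HSCs (78.1%), of those lower in DKO 19 of 23 (82.6%) and of those lower in Daxx-KO 98 of 412 (23.8%). No difference between these classes was tested. A 3 d.p.i. Daxx-KO LT-HSC peak, from a list of the same group, held 77.6% of the 67 sites and a Daxx-WT peak 43.3%.

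At the Cdk5rap1 site the LT-HSC libraries held 467.1, 209.0 and 277.6 scaled reads in Daxx-KO against 71.0 and 59.1 in Daxx-WT, a log2 difference of 2.27. The site in Col4a3, a collagen IV gene, at chr1:82685851-82687650, held 144.1, 155.6 and 93.9 against 49.6 and 42.2 in LT-HSCs, and 202.7, 202.1 and 242.7 against 32.8 and 22.9 in KLS cells. The DKO values there, 72.1 and 69.3 against 25.7 and 14.3, were also higher than in Daxx-WT. At the Gm2682 site the LT-HSC values were 199.1, 215.7 and 157.3 against 63.1 and 100.3, and at the 4921513I03Rik site 181.7, 179.4 and 175.2 against 77.8 and 42.2. At the Arhgap10 site the LT-HSC values were 33.9, 28.6 and 29.6 against 16.9 and 11.2, over an LT-HSC site of only 650 bp. The LT-HSC sites at the other genes named here were 1200 to 2950 bp long, so their levels are not on a like scale. At all 5 sites the Daxx-KO and Daxx-WT libraries did not overlap, as at 66 of the 67 sites and at 98.8% of all higher sites of that table.

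The limma test of all sites of the LT-HSC table called 0 of the 75 sites, and 0 of all sites, at an adjusted p of 0.05 over the 413247 windows of the header. The smallest limma adjusted p among the 75 was 0.301, a tied value that the Cdk5rap1, Col4a3, Gm2682 and 4921513I03Rik sites shared with further sites of the 75. At an unadjusted p of 0.05, 60 were higher and 7 lower, while 25.9% of all sites were higher and 70.2% lower. With the mean reads per window as the scale, 56 were higher and 0 lower, where 2621 of all 11927 sites were higher and 2177 lower. Without each Daxx-KO library, 56 to 61 were higher and 4 to 8 lower, against 2726 to 3159 and 7951 to 8367 of all sites. The authors had selected the listed sites for a difference in the same libraries, so these p-values are too small, and with 2 or 3 libraries they measure only the spread between these samples.

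**Figure D4:**
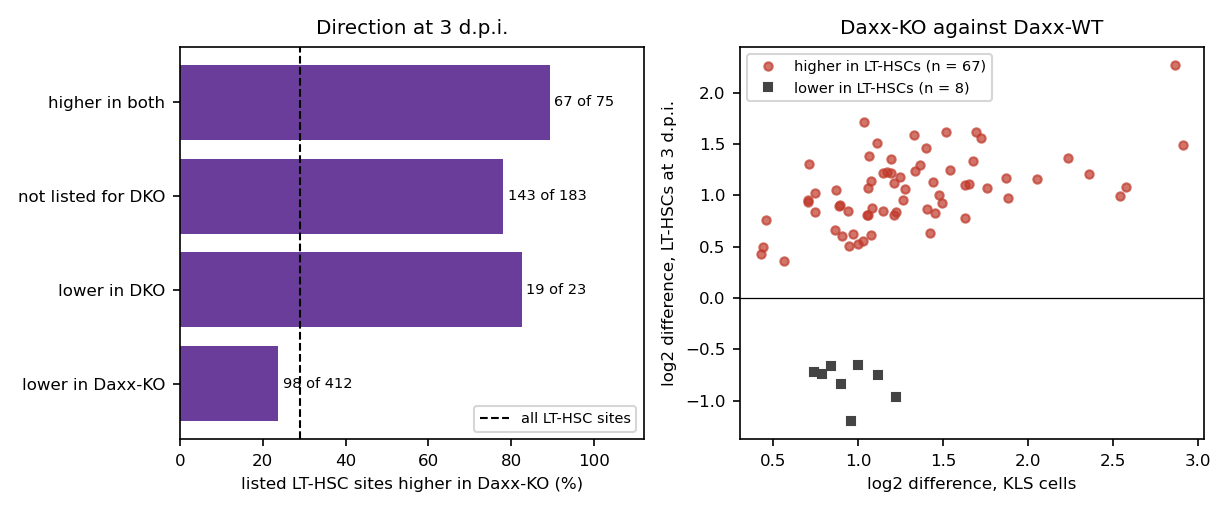
Left, share (%) of listed LT-HSC sites at 3 d.p.i. that were higher in Daxx-KO, by class of KLS site, with counts; the dashed line is the 29.1% of all LT-HSC sites. Right, log2 difference in KLS cells against that in LT-HSCs (both Daxx-KO against Daxx-WT) at the 75 sites, of which 67 lie above 0 and 8 below.

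The centres of the sites were searched for the letters that Pu.1 and other blood-cell factors bind. GAGGAAGT, the Pu.1 letters, on either strand within 100 bp of the centre, was found at 23 sites (4.26%), against 4.68% of the sites not listed for DKO, 6.85% of those lower in DKO and 8.84% of all sites lower in DKO. It was found at 1.47% of sites lower in Daxx-KO, 1.31% of all sites higher in DKO and in 3.2% of 32851 RefSeq promoter windows of 300 bp. These windows were wider than the 201 bp searched at each site, so the promoter shares, here and below, are not on a like scale. In the whole site the Pu.1 letters were found at 10.9% of the 540, 13.1% of sites not listed for DKO and 18.5% of those lower in DKO. The 23 sites with the letters had median log2 differences of 1.148 in Daxx-KO and 1.132 in DKO, and the 517 without them 1.111 and 1.207. With the constants of the authors the difference was larger in DKO at 60.9% of the 23 and at 67.5% of the 517, an order of the knockouts that turned with the scaling. A match is a match of letters and says nothing of binding.

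The RUNX letters TGTGGTT were found at 78 sites (14.4%), against 11.2% of sites not listed for DKO, 14.7% of those lower in DKO, 4.75% of sites lower in Daxx-KO and 6.19% of all sites higher in DKO. RUNX factors bind enhancers throughout haematopoiesis, and their letters were in 5.27% of the promoter windows. The MEIS letters TGACAG were found at 21.9%, against 16.9%, 14.4%, 14.7% and 17.2% in the same order and 19.2% of promoter windows. The E-box CAGCTG was found at 18.7%, against 19%, 19.9%, 10.8% and 13.5%, and 16.3% of promoter windows. Of the 540 sites, 8.70% held GAAANNGAA of the interferon-regulatory factors (8.56% of promoter windows), 7.96% TGANTCA of AP-1 (7.81%), 8.52% AGATAA of the GATA factors (11.2%) and 8.52% TTGCNNAA of C/EBP (10.8%). In the same order, these letters were at 6.83%, 7.79%, 7.84% and 7.63% of sites not listed for DKO. At sites lower in Daxx-KO the shares were 5.74%, 6.38%, 9.66% and 8.16%. The ETS core CCGGAAGT was at 0.370% (3.89%) and the CTCF core AGGGGGCGC at 0.185% (1.25%). These 2 were as rare in the other classes: 0.404% and 0.162% of sites not listed for DKO, 0.685% and 0% of those lower in DKO. At sites lower in Daxx-KO they were at 0.171% and 0.0643%. In all, 336 sites held at least 1 of the 10 motifs and 204 held none. The Pu.1 letters and the ETS core end in the same 6 letters but cannot match at the same position.

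**Figure D5:**
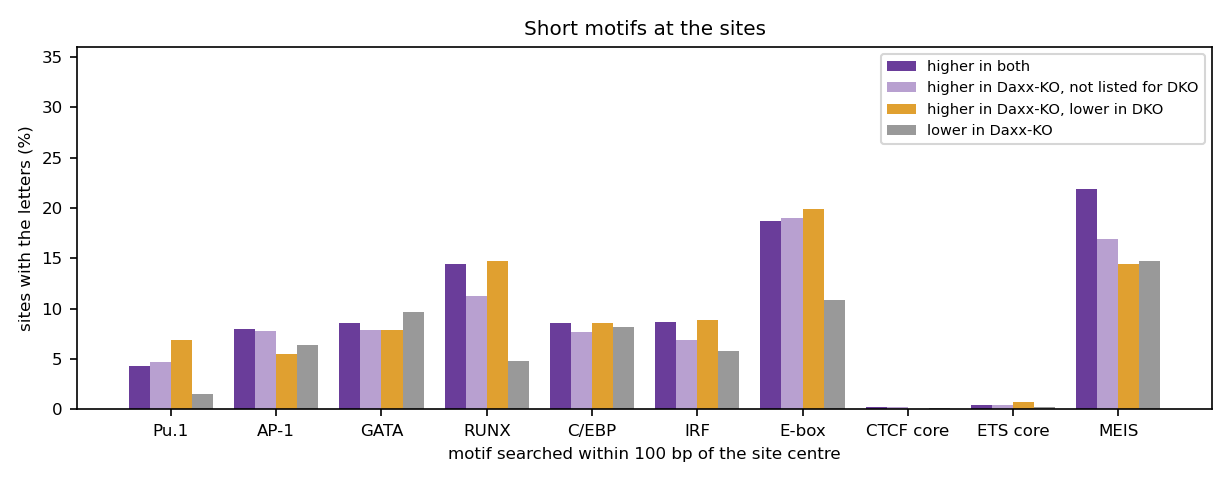
Share of sites (%) with the letters of each motif within 100 bp of the centre, by class. RUNX and E-box letters are at 14.4% and 18.7% of the 540 sites and at 4.75% and 10.8% of sites lower in Daxx-KO, and MEIS letters at 21.9% and 14.7%.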

How the data were processed

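ATAC-seq libraries were made from sorted mouse cells, 24 in 11 groups, which were taken from the labels. Per the labels, reads were processed with CASAVA 1.8.4, cutadapt 1.13, STAR 2.5.3 and bedtools, and mapped to mm10. Per the file headers, 3 site tables were produced by diffReps 1.55.6 (window 600 bp, step 50 bp, fragment 100 bp, negative binomial test, p cutoff 0.0001). The signal used here is the scaled reads of each library per site, which the authors deposited packed in 1 cell per group. The order of libraries follows the headers. Low values (below 20 reads), multiplied by the authors' constant, were whole within 0.1 in 100%, rounded. The authors' fold changes (log2) and p-value columns hold their own comparisons and were not used. The deposited start and end positions of the peaks were used; the fold enrichment in 5 lists, a ratio given by the authors, only ranked peaks.

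Sites were linked by an overlap of at least 1 bp. The sites and the gene lists were chosen with earlier results of these data known. Differences are log2(mean + 1) of scaled reads. Sites of the LT-HSC table were tested with limma 3.58.1 (R 4.3.3) on log2(scaled reads + 1), two-sided, with Benjamini-Hochberg adjustment over 413247 windows; the test was checked on simulated data. Python 3.11.15 was used for the rest, with pysam 0.24.0. Genes came from GENCODE M21 and sequences from RefSeq's GRCm38.p6. Genome copies were counted for words of 32 bases taken every 10 bases of each site, on chromosomes 1 to 19, X and Y. Genes were named by a fixed rule: the 10 sites with the highest smaller difference, sites at listed genes, the 5 highest in Daxx-KO and DKO but not Daxx-WT peaks, genes nearest to 3 or more sites, the 5 highest among those higher in LT-HSCs, the sites nearest the limits, Daxx and Spi1. Of the listed genes, 1 site is not reported here. Other genes are said to be chosen after their values were seen. Nothing in the labels says that libraries came from separate animals, although the methods describe replicates as biological.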

Additional observations from a re-analysis of the deposited data

Results flagged for a closer look

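At 8 of the 75 sites that LT-HSCs shared with the KLS sites, the direction was opposite: every Daxx-KO library of KLS cells lay above both Daxx-WT libraries, and every Daxx-KO library of LT-HSCs at 3 d.p.i. lay below both. Of all sites lower in the LT-HSC table, 99.7% were apart in the same way, and of all sites higher in the Daxx-KO table of KLS cells 98.2%. The LT-HSC log2 differences were -1.20 near Gm11468 (chr2:166261401-166262550), -0.97 near Gm13070 (chr4:149876001-149876900), -0.84 at Gm49322 (chr10:80606351-80606950) and -0.75 near Gm12565 (chr3:37605551-37606500). They were -0.74 at Atp6v1g2, a subunit of the vesicular proton pump (chr17:35233051-35233700), -0.72 at Gm31718 (chr8:126867101-126868150), -0.66 near Lamr1-ps1 (chr2:131887951-131888750) and -0.65 at Spata13 (chr14:60731651-60732900). The difference between the cell types was not tested, since the KLS values chose the sites. At the Gm11468 site the LT-HSC libraries held 15.6, 6.68 and 12.7 scaled reads in Daxx-KO against 27 and 29.1 in Daxx-WT, and none of the 8 sites passed limma's adjusted p in LT-HSCs.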

How the results depend on the processing

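The number of sites was 484 with an overlap of at least 50% of the shorter site, 532 with reads per window as the scale, 525 as loci within 5 kb, and 539 to 541 without each KLS library. It fell to 329 when only sites in a KLS peak were kept, and to 521, an alternative chosen after seeing the data, when at least 50% of the words had to be unique. The median log2 difference was 1.70 (Daxx-KO) and 0.55 (DKO) with the mean reads per window. For DKO it was 1.25 with a pseudocount of 0, 1.10 with 5 and 1.15 to 1.26 without each library; for Daxx-KO it was 1.00 to 1.17 without each library. The share higher in LT-HSCs was 89.3% or 90.1% in every alternative, and limma called 0 of the 75 sites in each. With the mean reads per window limma called 9 sites higher and 6 lower among all 11927. Alternatives that left out a library or changed the scale kept the deposited sites, which had been listed with all libraries. Little change in the number of sites and in the share higher in LT-HSCs was thus built in, and nothing is read from it. When 50% of the site had to lie in a peak, the shares became 48.7% (Daxx-KO), 24.1% (DKO) and 8.33% (Daxx-WT), and with the upper 50% of the peaks by fold enrichment 26.1%, 15.2% and 4.26%. At 2500 bp, 73.0% were distal, and the Pu.1 letters were in 10.9% of whole sites and in 5.19% within 150 bp. No paired analysis was possible because the LT-HSC table names its libraries by identifiers that hold no replicate number, and the KLS contrasts were not tested. An edgeR test was not run. Mean depths of 4.21 to 16.00 reads per window limit what low sites can show.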
